A study of Mus musculus with 18 samples.

Results

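The Hox transcription factors and the homeodomain proteins that act with them or upstream of them were followed through neural differentiation (ND) of mouse embryonic stem cells (ESCs) with and without Zeb2. The members were every gene of the deposited table whose symbol began with Hoxa, Hoxb, Hoxc or Hoxd and a number, or was a numbered Meis, Pbx or Cdx. This rule used no expression value and found 34 of the 10965 genes in the table. They were 24 protein-coding Hox genes (7 of the Hoxa cluster, 9 of Hoxb, 3 of Hoxc and 5 of Hoxd), the antisense genes Hoxb3os and Hoxb5os, Meis1 to Meis3, the Pbx genes and Cdx1. The GENCODE M21 annotation holds 39 mouse Hox genes, and the other 15 were not analysed here.

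The series compared the transcriptome of cells without Zeb2, a DNA-binding transcription factor that mediates BMP and Nodal signalling through Smads, with that of control cells during ND. The Ctrl cells carried the floxed alleles (Zeb2 fl/fl) and the Zeb2 KO cells the deleted alleles (Zeb2 -/-), and both were assigned to the strain CD1. Cells were taken in the ground state at day (d) 0, kept in LIF and the inhibitors PD0325901 and CHIR99021. At d4 they were multipotent progenitors from aggregates grown in medium with 15% fetal bovine serum, and at d6 neural progenitors from aggregates moved at d4 into N2B27 medium with 500 nM retinoic acid. Each of the 6 groups had 3 libraries of polyA RNA, described as biological replicates. The methods describe more than one derivation of the cell lines, and the labels do not say which was sequenced.

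Hox genes lie in clusters in the order in which they are expressed along the head-to-tail axis, and low paralog numbers are the anterior, early and most retinoic acid-responsive end of each cluster. Their proteins bind DNA together with the TALE homeodomain proteins Pbx and Meis, which raise their affinity and selectivity. Cdx proteins are homeodomain factors of the posterior embryo that act upstream of Hox genes. In the embryo the anterior Hox genes give hindbrain segments their identity, and retinoic acid response elements within and around the Hoxa and Hoxb clusters drive them there.

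The promoters of 20 of the 34 members were in the RefSeq table of promoter sequences (GRCm38.p6), each 300 bases long, from 250 before to 50 after the gene start. Those of 4 members are printed: Hoxb1, Hoxa2 and Hoxb8, which rose steeply in Ctrl, and Hoxd13, which differed little between the genotypes. Hoxb1, Hoxa2 and Hoxb8 are also the only members whose promoter holds TGATNNAT. The 4 printed promoters therefore cannot show a link between these letters and the response. Hoxa5, Hoxb4 and Hoxc4 rose steeply in Ctrl too, and their promoters hold none of the letters marked here. Capitals mark, on either strand, the letters TGATNNAT (a Pbx-Hox site), TGACAG (a Meis site) and TTTATG (a Cdx site), where N is any base, and no marked stretch overlaps another. Hoxb1, chr11:96365508-96365807, plus strand, holds TGATNNAT starting 162 bases before the gene start. Hoxa2, chr6:52164782-52165081, minus strand, holds TGATNNAT and TGACAG 111 and 44 bases before it. Hoxb8, chr11:96281655-96281954, plus strand, holds TTTATG 157 and 143 bases before the start and TGATNNAT 11 bases before it. Hoxd13, chr2:74667975-74668274, plus strand, holds none of them.
Hoxb1: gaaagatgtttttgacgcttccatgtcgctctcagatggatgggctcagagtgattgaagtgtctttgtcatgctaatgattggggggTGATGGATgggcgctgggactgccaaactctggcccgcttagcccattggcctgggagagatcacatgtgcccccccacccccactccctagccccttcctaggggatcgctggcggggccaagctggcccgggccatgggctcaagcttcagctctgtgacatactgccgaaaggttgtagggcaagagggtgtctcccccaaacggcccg
Hoxa2: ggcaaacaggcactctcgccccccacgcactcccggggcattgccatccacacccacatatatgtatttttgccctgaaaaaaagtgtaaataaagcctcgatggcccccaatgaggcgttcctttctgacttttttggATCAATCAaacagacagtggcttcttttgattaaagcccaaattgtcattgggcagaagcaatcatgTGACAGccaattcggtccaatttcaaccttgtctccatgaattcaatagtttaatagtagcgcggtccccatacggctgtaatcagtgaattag
Hoxb8: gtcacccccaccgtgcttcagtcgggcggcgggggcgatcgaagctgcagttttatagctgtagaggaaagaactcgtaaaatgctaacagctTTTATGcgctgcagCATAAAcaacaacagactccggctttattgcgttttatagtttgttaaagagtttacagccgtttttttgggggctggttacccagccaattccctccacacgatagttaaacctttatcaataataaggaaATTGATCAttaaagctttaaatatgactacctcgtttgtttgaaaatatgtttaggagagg
Hoxd13: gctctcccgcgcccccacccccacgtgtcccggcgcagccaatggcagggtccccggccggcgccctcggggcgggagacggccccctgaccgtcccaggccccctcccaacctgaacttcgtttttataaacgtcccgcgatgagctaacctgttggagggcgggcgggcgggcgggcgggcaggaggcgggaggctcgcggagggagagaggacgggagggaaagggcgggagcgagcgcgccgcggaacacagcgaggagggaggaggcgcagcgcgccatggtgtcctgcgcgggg

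Over the 20 promoters, TGATNNAT was in 3 (Hoxa2, Hoxb1 and Hoxb8, 15% against 8.85% of all 32851 promoters in the table). TTTATG was in 3 (Hoxa7, Hoxb8 and Hoxd3, 15% against 11.9%) and TGACAG in 2 (Hoxa2 and Hoxa3, 10% against 19.2%). Direct repeats of AGGTCA or AGTTCA, the retinoic acid response element, were in none of the 20 promoters with a spacer of 5 bases or of 2, and in 13 of 32851 (0.0396%) for each spacer. The E-box CACCTG, bound by Zeb2, was in 1 member promoter (Pbx2; 5% against 20.2%). A match in these windows is a description of letters only. An autoregulatory element of Hoxb1 with Pbx-Hox sites, upstream of the gene, is known from the mouse hindbrain. The member promoters had a median GC content of 59.8% and a median of 19 CpG pairs, against 52.7% and 7 over all promoters.

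Values are TPM, in which reads are scaled by gene length and by library total, and log2 differences are on the scale log2(TPM + 1). A gene was called when its limma p, adjusted by Benjamini-Hochberg over all 10965 genes, was below 0.01. Libraries held 9624677 to 15621169 reads on the genes of the table, and 1 read on a transcript of 1 kb stood for 0.238 to 0.371 TPM. The TPM contain 1 added read per gene, so a gene without reads has a small value above 0. Zeb2 itself had 730 to 949 reads in the Ctrl d6 libraries and 71 to 84 in the KO d6 libraries, and at d0 13 to 19 and 1 to 3 reads, so every library matched its genotype label. Genes had been admitted to the table at 5 TPM in at least 3 libraries, and by the methods the least variable genes had also been removed, so the shares over all genes are those of a table selected for change. Of the 34 members, 25 reached 5 TPM in 3 libraries only through Ctrl libraries, against 753 of all 10965 genes (6.87%). Those 25 had to differ between the genotypes or days, so counts and medians over the members below are descriptions of them. Among the 9 that also reached it in KO libraries were Hoxc13, Hoxd9, Hoxd13, Pbx4 and Cdx1. The RNA is from whole aggregates, in which fewer cells with a gene on and less RNA per cell cannot be told apart.

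In Ctrl the summed level of the Hox genes rose steeply over 6 days, and in Zeb2 KO it was lower at d4 and d6 than at d0. The summed TPM of the 24 Hox genes in the Ctrl libraries were 46.0, 42.3 and 50.3 at d0, 478, 545 and 588 at d4, and 1430, 1320 and 1260 at d6. In the KO libraries they were 52.2, 49.7 and 43.9 at d0, 32.1, 28.6 and 28.1 at d4, and 30.1, 25.9 and 16.1 at d6. The sums of the genotypes overlapped at d0, and at d4 and d6 every Ctrl library was far above every KO library. At d0 the limma test called 0 of the 24 Hox genes between the genotypes (10.6% of all genes tested were higher and 16.4% lower in KO), with 4 higher and 0 lower at an unadjusted p below 0.05. At d4 31 of the 34 members were lower in KO (32.7% of all genes tested were lower) and none was higher (12.7% of all genes). At d6 30 were lower (34.3% of all genes) and none higher (17.9%). On neither day was a member higher at an unadjusted p below 0.05 or by limma voom on the recovered reads. As 25 of the 34 members entered through Ctrl libraries alone, the absence of higher members was in part set by the entry to the table. Of the 24 Hox genes, 22 were lower at d4 and 21 at d6. The difference between KO and Ctrl over the Hox genes had medians of 0.03, -3.61 and -4.82 on the log2 scale on the 3 days, against -0.07, -0.16 and -0.14 over all genes. All KO libraries lay below all Ctrl libraries for 32 members at d4 (45.7% of all genes) and 31 at d6 (41.1%).

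**Figure D1:**
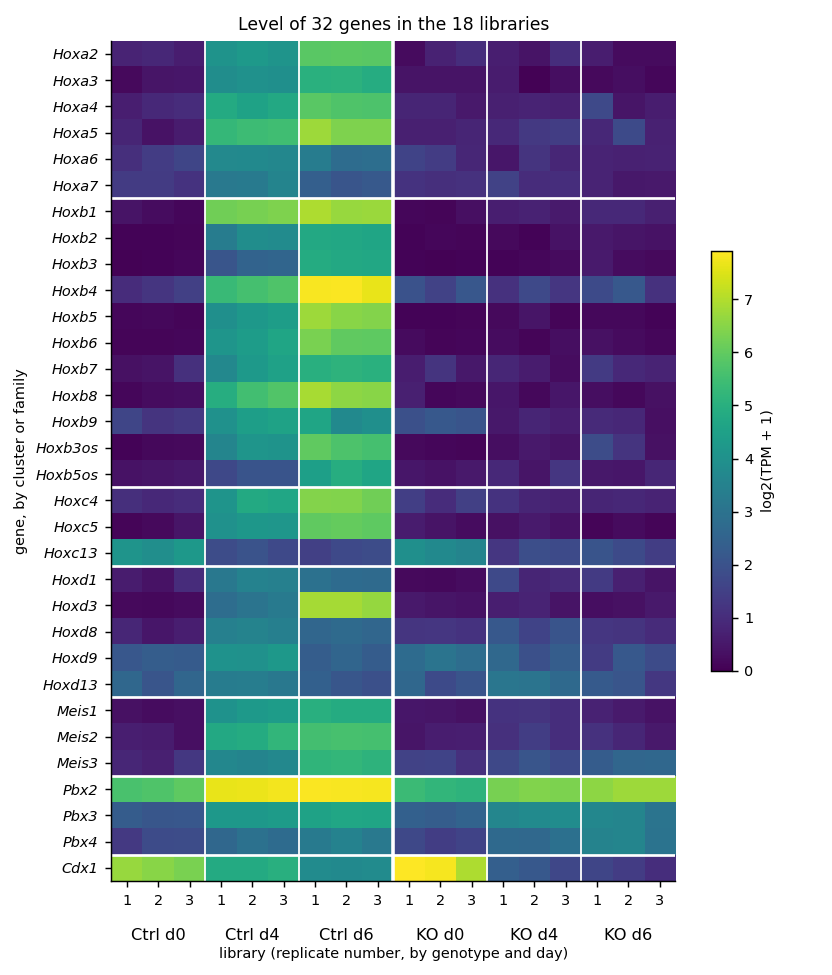
Levels of 32 members (lines of the map) in the 18 libraries (columns), as log2(TPM + 1), grouped by genotype and day, with Hox genes in order of cluster and paralog number. In Ctrl most Hox genes and Meis brighten from d0 to d6, while in KO they stay dark at all 3 days, except for the Pbx genes and a few others such as Cdx1 at d0.

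All 4 clusters showed the same contrast, and they differed in scale. The Hoxb sum (chromosome 11, 96271457 to 96368256, plus strand, GRCm38) in Ctrl was 4.34 ± 0.757 TPM at d0, 257 ± 41.2 at d4 and 693 ± 62.5 at d6 (SD, n = 3), and in KO 7.48 ± 0.271, 4.24 ± 0.667 and 6.04 ± 2.07. Hoxa, on chromosome 6 (52155590 to 52221854, minus strand), averaged 15.2, 187 and 371 TPM in Ctrl and 14.9, 6.23 and 6.99 in KO. Over the 7 Hoxa genes the median KO change from d0 to d4 was 0.03 on the log2 scale, so the lower KO sum at d4 was not general to the cluster. Hoxc, on chromosome 15 (102921103 to 103036852, plus strand) with 3 genes in the table, averaged 17.0, 41.7 and 146 TPM in Ctrl and 14.4, 3.43 and 3.34 in KO. Hoxd, on chromosome 2 (74668310 to 74765142, plus strand), averaged 9.65, 51.4 and 128 TPM in Ctrl and 11.8, 15.7 and 7.68 in KO. Without Hoxd3, whose reads may in part belong to other genes, the Hoxd means were 9.48, 44.2 and 19.2 TPM in Ctrl and 11.5, 15.1 and 7.36 in KO, so the Ctrl sum was lower at d6 than at d4. The Hoxc sum at d0 was mostly Hoxc13, the Hox gene with the highest TPM in ESCs.

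**Figure D2:**
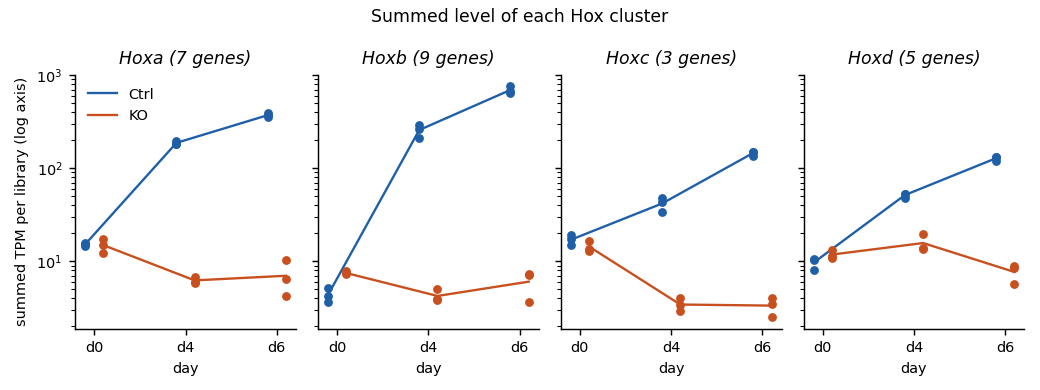
Summed TPM per library (points, log axis) of the 7 Hoxa, 9 Hoxb, 3 Hoxc and 5 Hoxd genes at d0, d4 and d6, with lines through the means of the 3 libraries of each genotype. The Ctrl sums climb at both steps in every cluster, the Hoxb sum from 4.34 to 693 TPM, although the Hoxd sum without Hoxd3 goes from 44.2 at d4 to 19.2 TPM at d6, while no KO sum at d6 is above its d0 sum.

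Paralog group 1, the most anterior, holds Hoxb1, which patterns the hindbrain. Hoxb1 in Ctrl was at 0.333, 0.198 and 0.110 TPM at d0, 72.2, 77.8 and 81.8 at d4, and 122, 102 and 105 at d6. In KO it was at 0.104, 0.0830 and 0.245 TPM at d0, 0.588, 0.691 and 0.488 at d4, and 0.879, 0.899 and 0.627 at d6. The lowest Ctrl library was thus over every KO library at both later days, and the difference was -5.62 ± 0.12 at d4 (SE; adjusted p = 1.58e-14) and -5.94 ± 0.12 at d6 (adjusted p = 4.07e-15). Hoxb1 had the largest difference of all members at d4. It also had a small rise within KO from d0 to d4 (0.47, adjusted p = 0.00245), resting on 1 read in the 3 KO libraries at d0 and 3 to 6 reads in each at d4. That call was lost when either KO d0 replicate 1 (adjusted p = 0.0101), KO d0 replicate 2 (0.0118) or KO d4 replicate 2 (0.0124) was left out, with a pseudocount of 5 (0.12, adjusted p = 0.149), after quantile normalization (0.16, 0.355) and with only the compared groups fitted (0.0143).

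Hoxd1 of the same group was lower in KO by -2.20 ± 0.25 at d4 (adjusted p = 2.83e-06) and -2.0 ± 0.25 at d6 (adjusted p = 4.35e-06), from Ctrl levels of 7.92 to 10.5 and 5.61 to 6.77 TPM.

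Paralog groups 2 and 3 hold genes of the rhombomeres and the rostral spinal cord. Hoxa2, the selector gene of the second pharyngeal arch, had 15.9, 18.1 and 16.0 TPM in Ctrl at d4 and 58.0, 59.5 and 58.4 at d6, against 0.170 to 1.05 TPM in the KO libraries at all days. With 2 reads in total in the 3 KO d6 libraries, it was lower there by -5.53 ± 0.19 (adjusted p = 1.26e-12). Hoxd3 had the steepest late rise of all members. Its Ctrl levels were 0.161, 0.137 and 0.183 TPM at d0, 6.13, 7.31 and 8.29 at d4, and 113, 113 and 101 at d6, a gain from d4 to d6 of 3.74 ± 0.14 (adjusted p = 6.36e-12). In KO it was at 0.585, 0.709 and 0.337 TPM at d4 and 0.213, 0.276 and 0.462 at d6, and the difference at d6 was -6.39 ± 0.14 (adjusted p = 4.07e-15). Hoxd3 shares 388 exon bases with Hoxd4, which was not analysed here, and 53.1% of its exon bases with the same-strand gene Gm28230, so part of its reads may belong to them. Hoxb3 likewise rose late, from 3.27 to 4.99 TPM at d4 to 25.7 to 28.1 at d6 in Ctrl, and was at most 0.471 TPM in KO. Hoxa3 and Hoxb2 rose at both steps in Ctrl (the second rise of Hoxa3, 1.07, was not called with a pseudocount of 0.1, adjusted p = 0.0293) and were lower in KO by -4.81 ± 0.14 (adjusted p = 1.7e-13) and -4.25 ± 0.15 (adjusted p = 9.28e-13) at d6.

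Paralog group 4 had the highest summed level at d6 in Ctrl, 356 TPM, against 4.28 in KO. Hoxb4, known for its role in blood stem cells besides the neural tube, reached 228, 234 and 201 TPM in Ctrl at d6, the highest TPM of the Hox genes on the deposited length, from 40.4, 46.4 and 51.8 at d4. In KO it was at 3.02, 1.95 and 3.43 TPM at d0, 1.18, 2.32 and 1.36 at d4, and 2.46, 3.57 and 1.17 at d6. The Ctrl libraries therefore rose together, while the KO libraries overlapped between all days, and the difference at d6 was -6.09 ± 0.24 (adjusted p = 4.23e-12). Hoxc4 followed it in form, with 87.0, 83.5 and 72.4 TPM in Ctrl at d6 and 0.730 to 0.837 in KO (-5.52 ± 0.18, adjusted p = 5.03e-13). Hoxa4 was lower by -4.83 ± 0.24 (adjusted p = 7.73e-11), and in KO d6 replicate 1 it was at 2.37 TPM against 0.359 and 0.564 in the other two.

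Paralog groups 5 and 6 are expressed at brachial and upper thoracic levels of the embryo. Hoxb5 had the largest difference of all members at d6. Its Ctrl levels were 14.4, 17.7 and 20.1 TPM at d4 and 108, 89.1 and 86.4 at d6, and the KO libraries held 1, 5 and 0 reads at d4 and 1, 1 and 0 reads at d6. The difference was -3.94 ± 0.14 at d4 (adjusted p = 5.22e-12) and -6.42 ± 0.14 at d6 (adjusted p = 4.67e-15). Hoxc5 behaved alike, at 62.3, 65.1 and 60.4 TPM in Ctrl and 0, 1 and 0 reads in KO at d6. Hoxa5 reached 108, 82.9 and 83.1 TPM at d6 in Ctrl and 0.839, 2.44 and 0.639 in KO, where replicate 2 stood above the others. Within paralog group 6 the clusters diverged. Hoxb6 gained 1.70 ± 0.14 from d4 to d6 in Ctrl (adjusted p = 7.36e-08). Hoxa6 went from 12.1, 12.5 and 11.7 TPM to 8.91, 5.99 and 6.31, a change of -0.72 ± 0.22 that was not called (adjusted p = 0.0109). Other settings called it, namely a pseudocount of 5 (-0.51, adjusted p = 0.000312), quantile normalization (-1.04, 0.000495), only the compared groups fitted (0.0043) and eBayes without trend (0.00908). It was also called without some single libraries, such as Ctrl d6 replicate 1 (-0.88, adjusted p = 0.00611). Hoxb6 and Hoxa6 were lower in KO at d6, by -5.84 ± 0.14 (adjusted p = 1.97e-14) and -2.24 ± 0.22 (adjusted p = 2.46e-07).

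Paralog groups 7 to 9 mark the trunk, and here the clusters parted after d4. Hoxb8 in Ctrl was at 29.7, 45.2 and 53.7 TPM at d4 and 117, 93.9 and 90.6 at d6, with 1 to 4 reads in each KO library at both days (-6.39 ± 0.20 at d6, adjusted p = 2.41e-13). Hoxb7 reached 31.0, 33.5 and 31.5 TPM at d6 in Ctrl, and its d4 to d6 rise of 0.88 (adjusted p = 0.00783) was lost without any one of 6 libraries, among them Ctrl d4 replicate 1 (0.65, adjusted p = 0.0513), with a pseudocount of 0.1 (0.92, 0.122), after removal of chromosome medians (0.79, 0.0148) and with the replicate block (0.0122). Hoxb9 had 15.1, 20.5 and 22.4 TPM at d4 and 23.9, 12.5 and 14.3 at d6, which overlap. By contrast Hoxa7, Hoxd8 and Hoxd9 peaked at d4 in Ctrl and fell afterwards. Hoxa7 went from 8.15, 8.59 and 10.9 TPM to 4.31, 3.29 and 3.61 (-1.10 ± 0.17, adjusted p = 3.9e-05). Hoxd8 went from 9.88, 10.7 and 9.67 TPM to 5.10, 5.68 and 5.10 (-0.82 ± 0.16, adjusted p = 0.000317). Hoxd9 went from 15.3, 14.9 and 17.6 TPM to 3.99, 5.03 and 3.94 (-1.67 ± 0.20, adjusted p = 2.45e-06), back to its d0 level of 3.47 to 3.99. It was the Hox gene of paralogs 1 to 9 with the smallest difference from KO at d6, where KO libraries had 1.62, 3.49 and 2.53 TPM (-0.61 ± 0.20, adjusted p = 0.0118; -0.80, adjusted p = 0.00265 without KO d6 replicate 2).

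Hoxc13 and Hoxd13, the most posterior genes of their clusters, did not follow the others. Hoxc13, known from hair and nail formation, was at 16.0, 13.9 and 17.6 TPM in Ctrl ESCs and 14.4, 12.4 and 10.9 in KO ESCs. It fell in both genotypes by d4, to 2.35 to 3.04 TPM in Ctrl (-2.20 ± 0.19, adjusted p = 3.1e-08) and 1.37 to 2.76 in KO (-2.11 ± 0.19, adjusted p = 6.69e-08). The difference between the genotypes was -0.23 ± 0.19 at d4 (adjusted p = 0.328) and 0.07 ± 0.19 at d6 (adjusted p = 0.772). Hoxd13, a gene of digit formation, stayed between 1.45 and 9.14 TPM in all 18 libraries. It was highest at d4, with 9.10, 9.14 and 7.94 TPM in Ctrl and 7.60, 7.29 and 5.50 in KO, and fell from d4 to d6 by -1.13 ± 0.26 in Ctrl (adjusted p = 0.00138) and by -1.09 ± 0.26 in KO (adjusted p = 0.00201). The last call was lost without KO d6 replicate 3 (-0.80, adjusted p = 0.0124) and with only the compared groups fitted (0.0146), and stood at the threshold without KO d4 replicate 1 (-1.01, adjusted p = 0.01). A rise from d0 to d4 in Ctrl (0.84, adjusted p = 0.0071) was lost without Ctrl d0 replicate 2 (0.66, adjusted p = 0.043) or without any one Ctrl d4 library (adjusted p = 0.0126 to 0.0225), with a pseudocount of 0.1 (0.97, 0.0141), after median-ratio rescaling (0.58, 0.0523), after removal of chromosome medians (0.64, 0.0351) and after quantile normalization (0.12, 0.652).

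Over the steps of ND in Ctrl, 32 of the 34 members rose from d0 to d4 (45.1% of all genes rose), and Hoxc13 and Cdx1 fell (22.3% fell). From d4 to d6, the days with retinoic acid, 22 rose (22.6% of all genes) and 5 fell (21.5%), namely Hoxa7, Hoxd8, Hoxd9, Hoxd13 and Cdx1. Leaving out 1 library at a time gave 18 to 24 members that rose at this step. The median over all genes moved by 0.26 from d0 to d4, and the Hox genes of paralogs 1 to 9 gained 1.82 to 6.01 at that step. Of the 24 Hox genes, 20 reached 5 TPM in 3 libraries only through Ctrl libraries. Their gains were thus in part set by the entry to the table, and the 2 values are given as a description. The change from d4 to d6 fell with paralog number across the 24 Hox genes, with Pearson r = -0.514 and Spearman rho = -0.436, and across the 22 genes of paralogs 1 to 9 with r = -0.422 and rho = -0.319. Within Hoxa (7 genes) r was -0.790 and rho -0.536, and within Hoxb (9 genes) -0.293 and -0.233. These describe genes that share the same libraries and lie next to each other, and are not independent points. The Hox genes not analysed here were mostly posterior, among them Hoxa9, Hoxa10, Hoxa11, Hoxc10, Hoxc11, Hoxc12, Hoxd10, Hoxd11 and Hoxd12. The 24 genes thus hold none between paralogs 9 and 13. For the step from d0 to d4, r over paralogs 1 to 9 was -0.187 and rho -0.0926. The gene with the largest gain was in group 1 (Hoxb1) at the first step and in group 3 (Hoxd3) at the second.

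**Figure D3:**
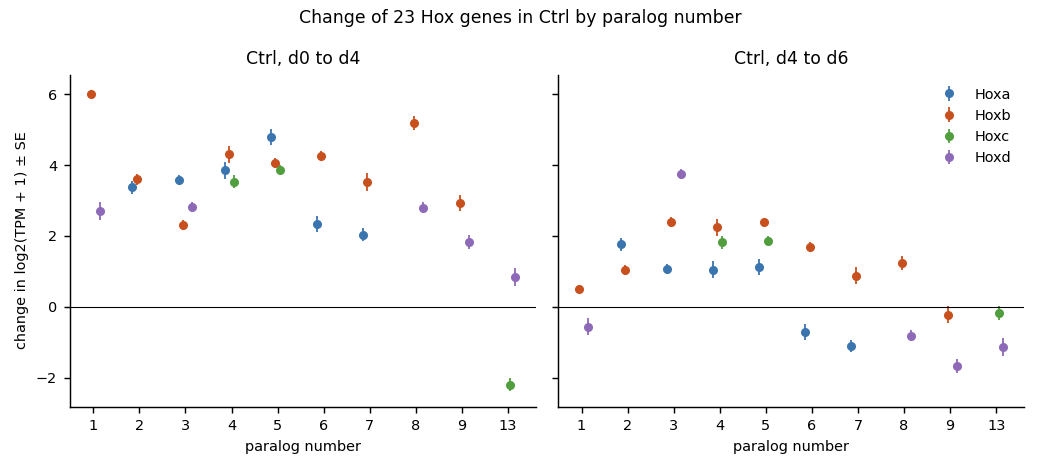
Change in Ctrl of 23 Hox genes (log2 difference of TPM + 1, mean ± SE of the limma fit) from d0 to d4 and from d4 to d6, against paralog number, coloured by cluster. Points of paralogs 1 to 9 are between 1.82 and 6.01 at the first step and between -1.67 (Hoxd9) and 3.74 (Hoxd3) at the second, where the negative values are at paralogs 1, 6, 7, 8, 9 and 13.

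Levels of different genes can be compared once they are set to the same length definition. Over the members, the length behind the TPM was 0.947 to 2.48 times the summed exon length in GENCODE M21. On the M21 length, the Ctrl d6 means included, in falling order, Pbx2 (337 TPM), Hoxd3 (269), Hoxb4 (221), Hoxb8 (169), Hoxb5 (159), Hoxb1 (136), Hoxc4 (129), Hoxb6 (112), Hoxa5 (91.2) and Meis2 (82.1). The order is of levels in Ctrl at d6 only and depends on the transcript lengths assumed. The place of Hoxd3 depends on them most, as its ratio was the 2.48, and part of its reads may belong to Hoxd4 and Gm28230.

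The antisense genes moved with the Hoxb genes beside them. Hoxb3os had 11.1, 16.4 and 15.7 TPM at d4 and 62.2, 51.5 and 46.4 at d6 in Ctrl, and 2.59, 1.28 and 0.281 in KO at d6 (-4.62 ± 0.26, adjusted p = 3.78e-10). Its exons share 2250 bases with Hoxb3, which is 52.9% of the Hoxb3 exon bases, and 953 with Hoxb2, and as no strand setting of the counting is given, the reads of these genes cannot be told apart. Hoxb5os shares 100 bases with Hoxb5, and rose late, from 2.28, 3.19 and 3.14 TPM to 21.2, 29.6 and 24.3 (2.74 ± 0.19, adjusted p = 9.05e-09). In KO it was at 0.418, 0.380 and 0.795 TPM at d6 (-4.08 ± 0.19, adjusted p = 3.98e-11).

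**Figure D4:**
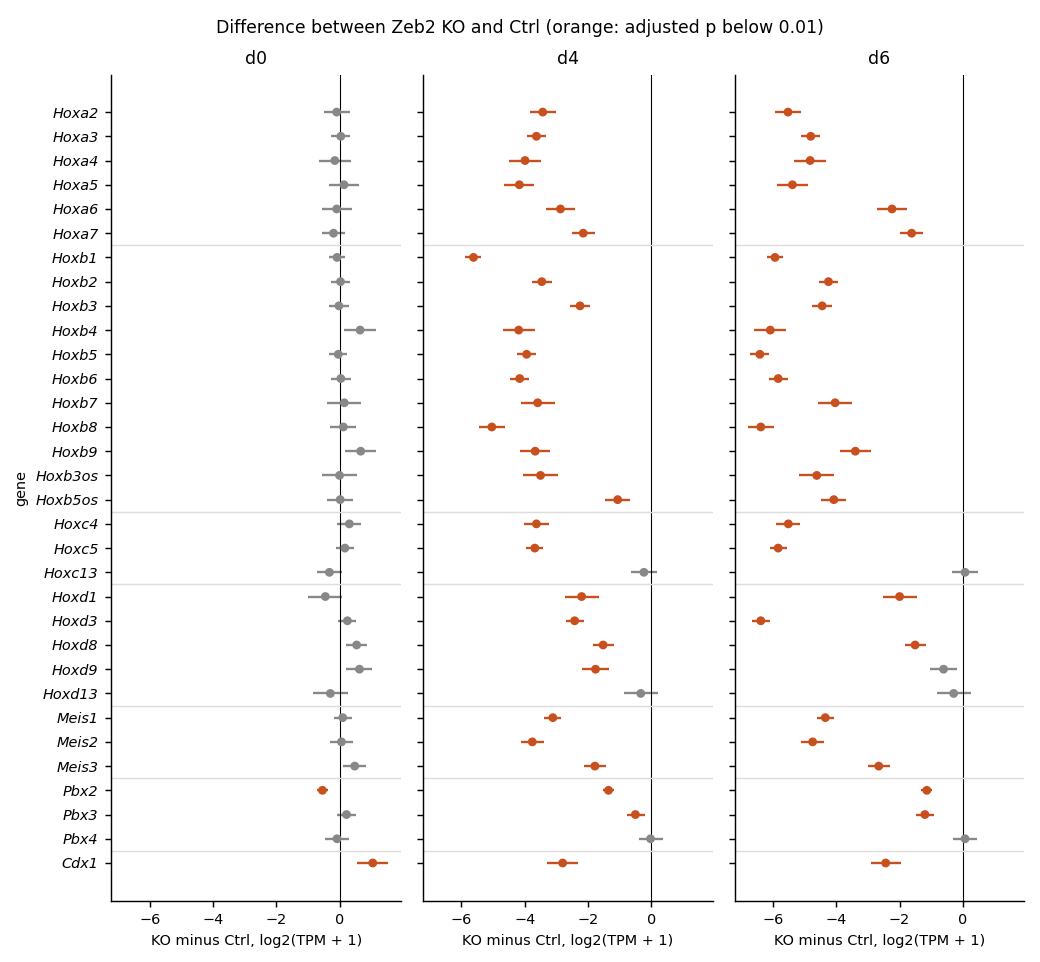
Difference between KO and Ctrl at d0, d4 and d6 for 32 members (log2 difference of TPM + 1, points, with 95% confidence intervals of the limma fit as bars; orange points have an adjusted p below 0.01). At d0 Pbx2 and Cdx1 are called, and at d6 the points reach -6.42 (Hoxb5), with Hoxc13, Hoxd9, Hoxd13 and Pbx4 not called.

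Within KO, few Hox genes changed over time. From d0 to d4, 9 of the 34 members rose (35.8% of all genes rose) and 4 fell (20.9%). Among them Hoxb1, Hoxd1, Hoxd8, Meis1, Meis2 and the Pbx genes rose, and Hoxb9 and Hoxc13 fell. Hoxb9 went from 2.83, 3.54 and 3.20 TPM to 0.418, 0.760 and 0.578 (-1.40 ± 0.23, adjusted p = 4.44e-05), opposite in direction to its rise of 2.93 in Ctrl (adjusted p = 7.91e-09), and the difference of these changes was -4.34 ± 0.32 (adjusted p = 4.7e-08). Hoxd8 went from 1.32, 1.39 and 1.21 TPM to 3.54, 2.00 and 3.18 (0.74 ± 0.16, adjusted p = 0.000529), and was back at 0.969 to 1.4 at d6. Its rise was lost after quantile normalization (0.04, adjusted p = 0.874). The rise of Hoxd1 (0.96, adjusted p = 0.00331) was lost with a pseudocount of 5 (0.29, adjusted p = 0.0203), after quantile normalization (0.57, 0.0648), after removal of chromosome medians (0.78, 0.0141), and without KO d4 replicate 1 (0.67, adjusted p = 0.0234), KO d0 replicate 1 (adjusted p = 0.0101) or KO d0 replicate 2 (adjusted p = 0.0116). From d4 to d6, with retinoic acid, 4 members rose in KO (21.5% of all genes) and 5 fell (19.9%), and without 1 library these counts were 0 to 4 and 1 to 5.

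On the log2(TPM + 1) scale, the Hox genes that differed most at d0 were higher in KO. The largest differences were in Hoxb9 (0.67, adjusted p = 0.0286), Hoxb4 (0.65, adjusted p = 0.0387), Hoxd9 (0.63, adjusted p = 0.0175) and Hoxd8 (0.54, adjusted p = 0.0118), each without overlap of the libraries and higher in KO. None was called, but other settings called some of them. Hoxd8 was called after median-ratio rescaling (0.59, adjusted p = 0.0078), with a pseudocount of 0.1 (1.05, 0.00292), after quantile normalization (0.76, 0.00281), after removal of chromosome medians (0.63, 0.00591) and with eBayes without trend (0.54, 0.00508). Hoxd9 was called after removal of chromosome medians (0.72, adjusted p = 0.0098) and with only the compared groups fitted (0.63, 0.00852), and quantile normalization called Hoxb4 (0.73, 0.00844) and Hoxd3 (0.55, 0.00549). Over all members, 7 were without overlap higher in KO at d0 (19.9% of all genes) and 3 lower (31.5%). Hoxd1 was among the 3 lower, by -0.45 on the log2(TPM + 1) scale, which shrinks differences at low levels. Its KO mean was 25.9% of the Ctrl mean (0.159 against 0.613 TPM), resting on 0 reads in the KO libraries and 9 in the Ctrl libraries.

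The Meis genes, TALE partners known to respond to retinoic acid, followed the Hox genes in the contrast between the genotypes. Meis2 had 0.240 to 0.600 TPM in the Ctrl ESCs, 26.4, 28.0 and 35.6 at d4, and 45.7, 48.2 and 46.6 at d6. In KO it was at 1.12, 1.70 and 1.04 TPM at d4 and 1.18, 0.787 and 0.440 at d6, a difference of -4.75 ± 0.17 at d6 (adjusted p = 1.49e-12). Meis1 had 31.0, 28.5 and 28.2 TPM in Ctrl and 0.701, 0.478 and 0.298 in KO at d6 (-4.35 ± 0.13, adjusted p = 1.81e-13). At d4 and d6 the KO levels of both stayed below 2 TPM and every Ctrl library was above 15, as the plot of the partners shows. Within KO both were called higher at d4 than at d0, Meis1 from a mean of 0.342 to 1.17 TPM and Meis2 from 0.510 to 1.29. Both calls were lost with a pseudocount of 5 (adjusted p = 0.0152 and 0.0671) and after quantile normalization (0.505 and 0.781). That of Meis2 was also lost in other settings, such as removal of chromosome medians (0.0379). Meis3 kept a higher KO level, at 3.98, 5.09 and 5.28 TPM at d6 against 35.3, 36.9 and 33.5 in Ctrl (-2.66 ± 0.17, adjusted p = 1.56e-09). It rose within KO from d0 to d6 by 1.10 ± 0.17 (adjusted p = 1.86e-05).

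The Pbx genes are dimer partners of many Hox proteins. Pbx2, the member with the highest mean Ctrl level at d6, rose in both genotypes and was lower in KO by -1.35 ± 0.08 at d4 (adjusted p = 2.99e-09) and -1.14 ± 0.08 at d6 (adjusted p = 9.02e-09). Pbx3 was lower at d6 (-1.20 ± 0.13, adjusted p = 1.13e-06). Its difference at d4 (-0.50, adjusted p = 0.00505) was lost without any one of Ctrl d4 replicates 1 to 3 and KO d4 replicates 1 and 2 (-0.52 to -0.43, adjusted p = 0.0118 to 0.0257). It was also lost after median-ratio rescaling (-0.33, adjusted p = 0.0397), removal of chromosome medians (-0.38, 0.0211) and quantile normalization (-0.20, 0.19).

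Pbx4 was a TALE partner without a called difference on any day. Its levels were 8.44, 10.4 and 8.27 TPM in Ctrl and 10.7, 11.1 and 7.05 in KO at d6, which overlap, and the difference was 0.07 with a 95% interval of -0.31 to 0.44. It rose from d0 to d4 in Ctrl by 1.13 ± 0.18 (adjusted p = 2.58e-05) and in KO by 1.20 ± 0.18 (adjusted p = 1.8e-05). The call in Ctrl was lost after removal of the chromosome medians (0.45, adjusted p = 0.029) and after quantile normalization (0.34, adjusted p = 0.0677). Pbx4 lies on chromosome 8, whose genes had a median difference of 0.332 between KO and Ctrl at d0, against -0.169 to 0.0802 for the other chromosomes with members. At d0 2 of the 34 members were lower in KO (16.4% of all genes were lower). Pbx2 was at 49.0, 51.9 and 61.0 TPM in Ctrl and 33.5 to 40.7 in KO, which do not overlap (-0.54 ± 0.08, adjusted p = 0.000106). This call was lost after removal of the chromosome medians (-0.25, adjusted p = 0.0217).

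Cdx1, a Wnt and retinoic acid target gene upstream of Hox genes, was the 1 Cdx gene in the table and took the opposite course. It was highest in ESCs, at 103, 90.0 and 78.5 TPM in Ctrl and 240, 224 and 122 in KO. At d0 it was the 1 member higher in KO (10.6% of all genes were higher), by 1.05 ± 0.23 (adjusted p = 0.00174). The call was lost without KO d0 replicate 1 (0.87, adjusted p = 0.0122), KO d0 replicate 2 (0.92, 0.0113) or Ctrl d0 replicate 3 (0.95, 0.0109). With only the compared groups fitted it was lost as well (1.05, adjusted p = 0.0133). In Ctrl it had fallen to 27.4, 27.5 and 31.0 TPM by d4 and to 13.1, 12.4 and 13.1 by d6. The fall in KO went further, to 4.24, 3.56 and 2.20 TPM by d4 and 2.16, 1.64 and 1.03 by d6. The order of the genotypes was thus reversed after d0, with differences of -2.80 ± 0.23 at d4 (adjusted p = 6.32e-08) and -2.44 ± 0.23 at d6 (adjusted p = 1.47e-07).

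**Figure D5:**
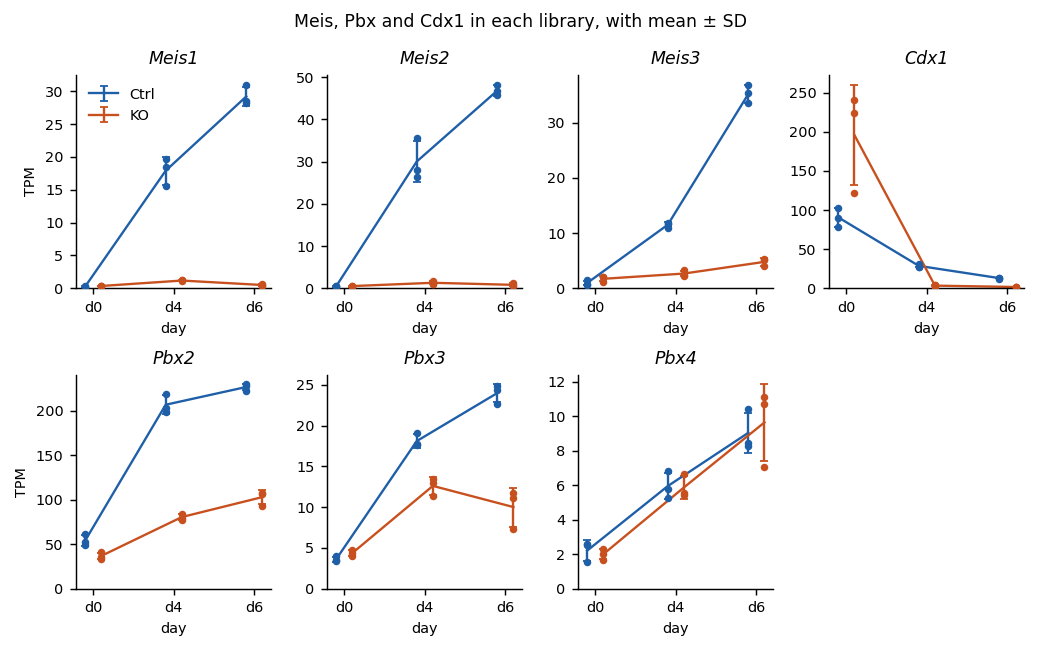
TPM of Meis1 to Meis3, Cdx1 and Pbx2 to Pbx4 in each library (points) at d0, d4 and d6, with the mean ± SD of the 3 libraries per genotype. Meis1 and Meis2 climb in Ctrl and stay below 2 TPM in KO, Pbx4 overlaps between the genotypes, and Cdx1 starts higher in KO (122 to 240 TPM) and ends lower.

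Tested over all days at once, the course relative to d0 differed between the genotypes for 31 of the 34 members (48.7% of all genes), the exceptions being Hoxc13, Hoxd13 and Pbx4. For the 2 days from d4 to d6 alone, the change differed for 15 members (13.4% of all genes; 7.10% with a higher and 6.29% with a lower change in KO). In 14 of these the KO change was lower, with Hoxd3 (-3.97), Hoxb5os (-3.02) and Hoxb5 (-2.48) at the far end. In Hoxd9 it was higher (1.15 ± 0.28, adjusted p = 0.00646), with changes of -1.67 in Ctrl and -0.52 in KO, and this call was lost without any one of 9 libraries (0.95 to 1.19, adjusted p = 0.0115 to 0.0189), with a pseudocount of 0.1 (0.0257), with only the compared groups fitted (0.0229), with the replicate block (0.0104) and by voom (0.0439).

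Genes that act around the Hox system were counted by lists, beside which 34.3% of all genes were lower and 17.9% higher in KO at d6, and 32.7% and 12.7% at d4. Of 18 retinoic acid metabolism and response genes in the table, 6 were lower and none higher in KO already at d0 (16.4% and 10.6% of all genes), 14 were lower and none higher at d4, and 17 were lower and 1 higher at d6, with a median of -2.47. Among them Stra8, a germ cell gene named for its response to retinoic acid, was lower by -6.70 at d6, the carrier protein gene Crabp1 by -6.49 and Crabp2 by -5.57. Of 14 hindbrain segmentation genes, 8 were lower at d4 and 11 at d6, and 1 was higher at d6. Zfp703 (-5.81) and Irx3 (-4.31) were among them. Of 8 other TALE homeodomain genes, 6 were lower and 2 higher at d6, with Irx1 (-4.98), Irx3 and Irx5 (-3.53) in front, and Irx3 is on both lists. Of 11 posterior growth zone genes, 6 were lower (Sp8 -3.60, Wnt3a -3.45) and 4 higher (Fgf4 3.42). Of 5 forebrain and midbrain genes, 2 were lower (Wnt1 -4.47, Lhx2 -1.72) and 1 higher (Otx2 4.00), shares near those over all genes.

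The Polycomb and Trithorax groups hold chromatin regulators that keep Hox clusters silent or active. Of 22 Polycomb genes, 12 were lower and 5 higher in KO at d6, with a median of -0.37 against -0.14 over all genes, and Phc1 (1.92), Cbx8 (-1.89) and Phc2 (-1.87) had the largest differences. Of 14 Trithorax and related genes, 3 were lower and 3 higher, with a median of -0.13, and the largest were Kdm6b (-1.06), Setd1b (-0.77) and Dpy30 (0.74).

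Marker lists of other cell types moved with the genotypes at d6 as well. All 11 neural markers in the table were lower in KO, and their summed level was 537 to 648 TPM in Ctrl and 132 to 181 in KO (Pax6 -4.29, Neurog1 -4.13, Pax3 -3.50). Of 10 mesoderm markers 8 were lower (236 to 282 against 50.3 to 52.5 TPM; Meox1 -6.47, Osr1 -3.01, Foxc2 -2.02), and all 10 endoderm markers were lower (164 to 224 against 42.3 to 58.2 TPM; Afp -3.21, Foxa1 -2.42, Gata6 -2.30). Of 11 pluripotency markers 8 were higher and 1 lower (425 to 486 against 1720 to 2030 TPM), with Fgf5 (4.89), Otx2 and Dnmt3b (3.06) in front, which are genes of the postimplantation epiblast, and Otx2 is also on the forebrain and midbrain list. Of 7 neural crest markers 6 were lower and 1 higher (86.6 to 121 against 50.9 to 57.6 TPM; Zic1 -4.66, Sox9 -3.72, Foxd3 3.50), and of 9 trophectoderm markers 5 were lower and 1 higher (1220 to 1870 against 1110 to 2150 TPM; Eomes 1.86, Gata2 -1.71, Krt19 -1.32). At d0 1 of the 11 pluripotency markers was higher and 2 were lower in KO, and 2 of the 11 neural markers were lower, shares near those over all genes (10.6% higher and 16.4% lower). The part of these shifts in the makeup of the aggregates in the Hox differences was not tested.

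The 10 genes outside the members whose values over the 18 libraries were most like the mean Hox profile were Nrip1 (r = 0.991), Zfp703, Arg1, Meox1, Stra8, Efnb1, Nhlh1, Zbtb16, Tshz1 and Maml1 (r = 0.976). The libraries share genotype and day, so any gene that rose in Ctrl alone scores high, and these values are a description. Zbtb16, a zinc finger repressor, had means of 1.16, 21.6 and 65.0 TPM in Ctrl and 0.860, 1.25 and 0.479 in KO. Among the members, the profiles of Hoxc13 (r = -0.402), Cdx1 (0.061), Hoxd13 (0.318), Pbx4 (0.396) and Hoxd9 (0.577) were the least like the mean.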

How the data were processed

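PolyA RNA of Ctrl and Zeb2 KO cells at d0, d4 and d6 was sequenced by the authors from TruSeq libraries, and reads were mapped to GRCm38 with TopHat2 2.0.13 and counted per gene with featureCounts 1.4.6, per the submitters' processing notes. The deposited values are TPM, computed by the authors per library, with 1 added read per gene, for 10965 genes. By the methods, genes were kept at 5 TPM in at least 3 libraries and the least variable were then dropped. The authors' methods tested counts with DESeq2. The deposited score columns (variance, variance over mean and variability over all libraries) were not used.

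Log2(TPM + 1) was fitted with limma 3.58.1 (lmFit, contrasts.fit, eBayes with trend) in R 4.3.3, with 1 mean for each of 6 groups and 18 libraries, and p-values were adjusted by Benjamini-Hochberg over all genes (threshold 0.01). The labels name biological replicates without saying how cultures were separated, so p-values measure the spread between these libraries, and no pair of replicates was a duplicate by a chi-square test (4.3 to 23.5 per degree of freedom). Whole reads were recovered from the TPM of all 10965 genes (within 1e-05) and gave 9624677 to 15621169 reads per library on these genes. Low levels are limited to the steps of 1 read stated in the report. The read recovery and the fit were tested on simulated data. With 200 genes changed, the fit recovered 92.5% at a log2 change of 1.5 (KO minus Ctrl at d4) and 98.5% at 3 (d6), with 5 and 3 false calls. With none changed it made 1 call in 10965 genes (d0). The simulation used 1 spread for all groups. It therefore does not cover the wider spread of the KO d6 libraries, whose chi-square values were 9.2 to 23.5 per degree of freedom.

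Members were named with their values. Some genes of the table are not reported here. Of the other lists (other TALE, retinoic acid, posterior growth zone, hindbrain, forebrain and midbrain, Polycomb, Trithorax, and markers of 6 cell types) at most the 3 called genes with the largest difference at d6 were named, and for likeness the 10 genes with the highest correlation with the mean Hox profile. The members and lists were chosen with earlier results of these data known. Alternatives were pseudocounts of 0.1 and 5, a mean TPM of at least 10, median-ratio and quantile scaling, removal of chromosome medians, voom on the recovered reads, a fit of the compared groups only, eBayes without trend, the thresholds of the study, a replicate block and leaving out each library. Summaries were made in Python 3.11.15 with pandas 2.3.3, and figures with matplotlib 3.10.9.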

Additional observations from a re-analysis of the deposited data

Results flagged for a closer look

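The change from d4 to d6 differed between KO and Ctrl, by a test of the difference itself, for 15 members, and values are the KO change minus the Ctrl change on the log2 scale. In the anterior and middle Hox genes it was -2.10 for Hoxa2, -1.18 for Hoxa3, -2.20 for Hoxb3, -1.90 for Hoxb4, -2.48 for Hoxb5, -1.68 for Hoxb6, -1.90 for Hoxc4, -2.15 for Hoxc5 and -3.97 for Hoxd3. Hoxb8 (-1.35) and the antisense gene Hoxb5os (-3.02) followed them. Among the TALE partners it was -1.24 for Meis1 and -0.99 for Meis2. Hoxd9 (1.15) had a positive value. The calls of Hoxd9 and Meis2 were lost without any one of 9 and 8 libraries. Hoxa3, Hoxb3, Hoxb4, Hoxb5, Hoxb6, Hoxb8, Hoxc4 and Hoxd9 were not called when the recovered reads were fitted with voom, and the cause was not tested. With 3 libraries per group, single libraries were not tested for standing apart.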

How the results depend on the processing

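The members lower in KO at d4 (31) and d6 (30), the 0 members higher there, the 32 that rose in Ctrl from d0 to d4 and the 31 with a different course stayed within 1.5 times under every alternative, except that a mean TPM of at least 10, which tests fewer members, gave 18, 18, 17 and 18. Without 1 library these 4 counts were 30 to 31, 30 to 31, 31 to 32 and 31 to 31, and the 0 members higher at d4 and d6 stayed 0 to 0. That 0 was in part set by the entry of 25 members through Ctrl libraries alone.

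At d0, the members higher in KO (1) were 2 with a pseudocount of 0.1, after median-ratio rescaling and with eBayes without trend, 3 after removal of chromosome medians and 5 after quantile normalization. The 2 lower were 1 with a pseudocount of 5, after quantile normalization, after removal of chromosome medians and with only the compared groups fitted, and 0 at the thresholds of the study (unadjusted p below 0.01 and a log2 difference above 1). Without 1 library they were 0 to 3 higher and 2 to 2 lower.

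In Ctrl, the 2 members that fell from d0 to d4 were 1 at a mean TPM of at least 10 (2 to 2 without 1 library). The 22 that rose from d4 to d6 were 13 with a pseudocount of 0.1 (18 to 24 without 1 library), and the 5 that fell were 1 at a mean TPM of at least 10 (5 to 6).

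In KO, the 9 members that rose from d0 to d4 were 5 at a mean TPM of at least 10 and 4 after quantile normalization and at the thresholds of the study (6 to 10 without 1 library). The 4 that fell were 2 at a mean TPM of at least 10 and 11 after quantile normalization (4 to 5). From d4 to d6 the 4 that rose were 2 with a pseudocount of 0.1 and at a mean TPM of at least 10, 1 after quantile normalization, and 0 with only the compared groups and at the thresholds of the study (0 to 4). The 5 that fell were 3 with a pseudocount of 5, 1 at a mean TPM of at least 10 and at the thresholds of the study, 8 after quantile normalization and 0 with only the compared groups (1 to 5). Quantile normalization reversed the change from d0 to d4 in KO of Hoxa7 (0.08 to -0.60, adjusted p = 0.0083), Hoxc5 (0.01 to -0.51, adjusted p = 0.00977) and Meis2 (0.59 to -0.06, adjusted p = 0.781). The 15 members with a different change from d4 to d6 were 8 with a pseudocount of 0.1, 23 with a pseudocount of 5 and 8 with voom (13 to 18 without 1 library). The cause of these shifts was not tested.

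The replicate numbers were not treated as pairs in the main fit, while the paper describes 3 independent experiments for each stage. Correlations of the deviations of same-numbered libraries were 0.0629 to 0.231 for replicate 1, 0.147 to 0.336 for replicate 2 and -0.0926 to 0.100 for replicate 3. In 35 of 45 comparisons a library correlated best with its own number out of 3, so same-numbered libraries shared a small part of their deviation, which the main fit ignores. With the replicate block, 1 member was higher and 2 lower at d0, 31 lower at d4 and 30 at d6, 21 rose and 5 fell in Ctrl from d4 to d6, 10 rose and 4 fell in KO from d0 to d4, 3 rose and 5 fell there from d4 to d6, and 13 changed differently from d4 to d6.

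Depth limited the KO values: several Hox genes held 0 to 5 reads per library, so their KO levels are near the added read and the size of their differences depends on the pseudocount.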
